A study of Mus musculus with 3 samples.

Results

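The genes described here encode the subunits of voltage-gated calcium channels and voltage-gated sodium channels, together with the HCN pacemaker channels, in single-cell RNA sequencing of mouse pituitary. They were chosen by gene symbol: the calcium channel pore genes (Cacna1), the alpha2delta, beta and gamma auxiliary genes (Cacna2d, Cacnb, Cacng), the sodium channel pore and beta genes (Scn) and the HCN genes (Hcn). Of 55293 gene symbols, 44 matched, and 41 of these had at least 50 counts over all libraries and are described by cluster and genotype. Cacna1s had 28 counts in all, Cacng1 had 39 and Scn4b had 16. The heading of calcium and sodium channels is narrower than the set, because HCN channels conduct both sodium and potassium and several Cacng proteins are known mainly as partners of AMPA-type glutamate receptors.

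Dissociated pituitary cells of TpitWT, TpitHT and TpitKO mice (WT, HT and KO below) were sequenced, with 1 library per genotype. Tpit, the product of Tbx19, is a T-box transcription factor that directs corticotropes and melanotropes, the Pomc-producing cells. The labels name no strain, age or number of mice, do not spell out HT and leave out how the allele was produced. The libraries held 11222, 12839 and 13413 cells with mean counts per cell of 9561, 11869 and 9935 in WT, HT and KO. Tbx19 stood at 17.6, 12.4 and 0.690 CPM, the usual scaling of counts to library size, and Pomc at 21846, 22576 and 58.3 CPM in WT, HT and KO. Of the cell barcode sequences, 115 occurred in more than 1 library. The files give each cell a cluster number from 0 to 20. The names used for clusters (lactotrope-like and so on) come from marker genes, and clusters 11, 12, 13, 16 and 17 have no name. In cluster 12, 5 of 5 lactotrope and 5 of 5 red cell markers were at least 4-fold above the median cluster. Its gene of highest fold was the prolactin gene Prl. Corticotrope-like cluster 6 and melanotrope-like cluster 7 had 0 KO cells, cluster 18 had 9 WT, 2 HT and 107 KO cells, and of the somatotrope-like clusters, 1 was shared, 2 had 17 KO cells and 5 had 28 WT and 24 HT cells.

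Pituitary endocrine cells fire action potentials, and the calcium that enters through voltage-gated channels triggers hormone release. A calcium channel is built on a pore-forming subunit, with an alpha2delta protein that brings it to the cell surface and a cytosolic beta subunit that sets its gating. Sodium channels shape the action potential with a pore and small beta subunits that also act as adhesion molecules. HCN channels open when the membrane is hyperpolarised and help to pace firing.

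Values are CPM, the raw counts of a gene summed over the cells of a cluster and library and divided by the total counts of those cells. Intervals are 95% exact Poisson intervals for levels and exact conditional binomial intervals for ratios. They cover counting error only, and with 1 library per genotype the spread between animals is unknown, so no test between genotypes was possible. Library reagents read the 3′ end of transcripts, so levels are compared between clusters or genotypes for 1 gene at a time and never between genes. Since the clusters were made from the expression of all genes, the order of clusters is a description. A gene's leading cluster is the one with the highest CPM averaged over libraries in which the cluster held at least 50 cells.

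Summed over all cells, the channel genes made up nearly equal parts of the libraries, with 387, 381 and 391 CPM in WT, HT and KO. By cluster the sum differed more. In KO it was 1520 CPM in pituicyte-like cluster 18 and 97.0 CPM in cluster 16, which is led by immunoglobulin genes. Of the 1520 CPM in cluster 18, Scn7a alone made up 1106 CPM. In WT it was 727 CPM in melanotrope-like cluster 7, 607 CPM in corticotrope-like cluster 6 and 177 CPM in somatotrope-like cluster 1. Growth hormone mRNA alone stood at 680373 CPM in WT cells of cluster 1, which lowers the CPM of every other gene there.

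**Figure D1:**
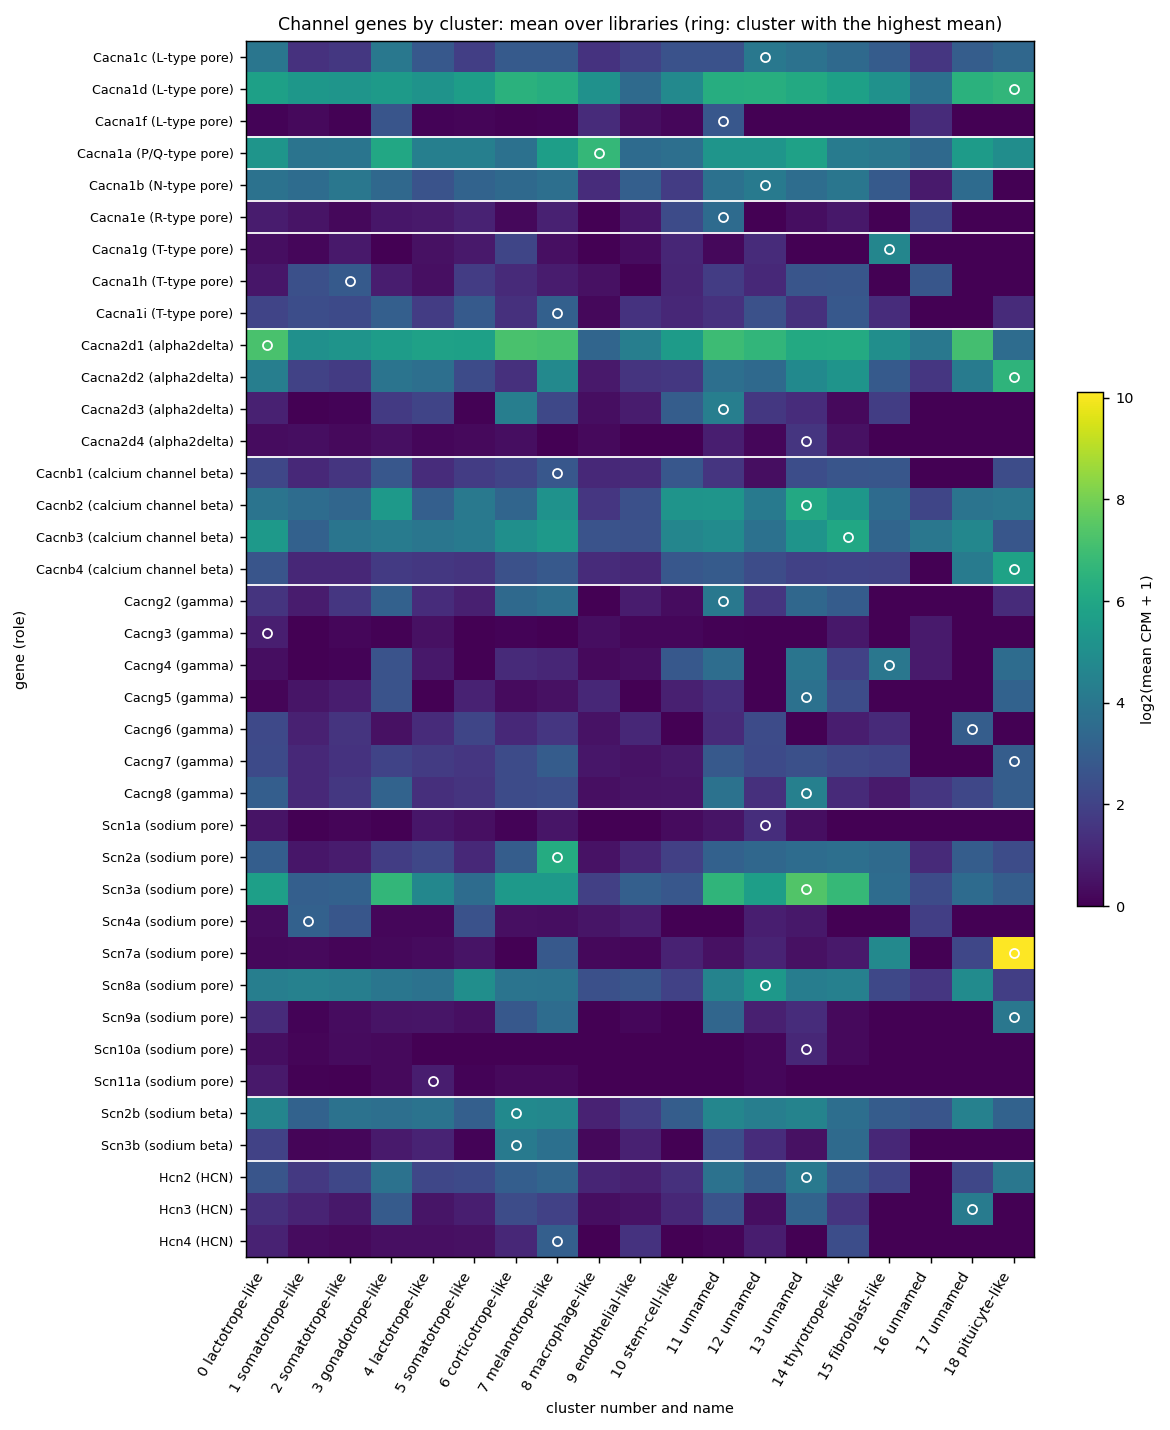
Mean CPM of channel genes (rows, by role) in clusters 0 to 18 (columns), on a log2(CPM + 1) colour scale, averaged over the libraries in which the cluster held at least 50 cells. Rings mark each gene's leading cluster. The ring of Scn7a lies on pituicyte-like cluster 18 and that of Scn2a on melanotrope-like cluster 7.

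The leading cluster differed widely among the 41 genes. Unnamed cluster 13 led for 7 of them and pituicyte-like cluster 18 for 6. The gene of highest fold in cluster 13 was the neurofilament gene Nefl. There 6 of 8 gonadotrope, 3 of 4 thyrotrope and 2 of 5 neuron markers were at least 4-fold above the median cluster. Cga is in both the gonadotrope and the thyrotrope list. Melanotrope-like cluster 7, cluster 11 and cluster 12 led for 4 each. Cluster 18 held at least 50 cells in KO alone, so its 6 leads rest on that library. Within KO, Cacna1d was highest in cluster 12 and Cacng7 in cluster 15. In 5 genes, among them Cacna1g, Cacna2d2, Scn2a and Scn7a, the leading cluster's intervals lay above those of the runner-up whichever libraries were paired. For genes other than those 5, the intervals of the first and the second cluster overlapped in at least 1 pairing of libraries. In 18 genes the leading cluster was the same in every library where it held at least 50 cells. For Cacna2d2, Cacnb4, Cacng6, Scn7a, Scn9a and Hcn3 this was the KO library alone.

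Among the L-type pore genes, whose channels carry long-lasting calcium current, Cacna1d was present in every endocrine cluster. Its highest mean, 99.3 CPM in pituicyte-like cluster 18, comes from KO cells alone, and in the same library cluster 12 had 101 CPM. It reached 93.6 CPM in WT and 79.5 in HT in corticotrope-like cluster 6, and 85.0 and 68.6 CPM in melanotrope-like cluster 7. In endothelial-like cluster 9 it stood at 14.7, 6.56 and 9.38 CPM in WT, HT and KO. Cacna1c, the L-type pore of heart and smooth muscle, was at 16.7, 15.3 and 14.03 CPM in gonadotrope-like cluster 3, close to its 14.03, 13.3 and 16.5 CPM in lactotrope-like cluster 0. Cacna1f, best known from retinal photoreceptors, was near 0 in most clusters. Its exceptions were gonadotrope-like cluster 3, with 4.97, 4.52 and 6.36 CPM, and cluster 11, with 9.17, 1.23 and 6.79 CPM on 3, 1 and 43 counts. The skeletal muscle gene Cacna1s had 9, 3 and 7 of its 28 counts in cluster 16.

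Cacna1a, the P/Q-type pore known for its part in synaptic release, had its highest CPM outside the endocrine cells. In counts per cell its leading cluster was gonadotrope-like cluster 3, where mean depth was 11207 to 15808 counts. Macrophage-like cluster 8 had 116, 88.8 and 116 CPM in WT, HT and KO, and in the small second macrophage-like cluster 19 the values were 42.1, 111 and 99.0 CPM. Gonadotrope-like cluster 3 followed with 84.3, 52.0 and 60.6 CPM, and endothelial-like cluster 9 had 10.7, 5.74 and 14.9 CPM. A count of Cacna1a was found in 29.3%, 23.3% and 31.9% of the cluster 8 cells, whose mean depth was 3630 to 4644 counts, against 3.38%, 1.78% and 4.17% of the cluster 9 cells at 3610 to 4343 counts. Cacna1a overlaps an antisense gene, Gm16183, and the sources used here do not state whether reads were assigned by strand.

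Cacna1b, the N-type pore, was spread evenly, with a leading mean in cluster 12 (15.5, 24.7 and 11.1 CPM on 8, 13 and 26 counts) and 18.7 and 11.96 CPM in WT and HT cells of somatotrope-like cluster 2. Cacna1e, the R-type pore, was scarce apart from clusters 11, 10 and 16. It was at 18.3, 9.83 and 3.95 CPM in cluster 11 on 6, 8 and 25 counts. Stem-cell-like cluster 10 had 7.44, 3.33 and 1.23 CPM. Cluster 16 had a mean of 3.28 CPM over WT and KO and was the highest cluster in KO.

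The T-type pore genes, whose channels open at small depolarisations, differed in how clearly 1 cluster led. Cacna1g was at 24.3, 17.8 and 30.7 CPM in fibroblast-like cluster 15, which held 73.9% of the sum of its mean CPM over clusters. The runner-up, corticotrope-like cluster 6, had 2.76 CPM in WT and 3.85 in HT. Cacna1h had its highest mean in somatotrope-like cluster 2, at 5.41 and 7.002 CPM in WT and HT, 1.11-fold over thyrotrope-like cluster 14, and within the libraries cluster 16 was highest in WT and cluster 13 in HT and KO. Cacna1i had its highest mean in melanotrope-like cluster 7, at 6.87 and 8.23 CPM, close to the 6.76, 5.72 and 9.50 CPM of gonadotrope-like cluster 3.

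Of the alpha2delta genes, Cacna2d1, whose protein binds gabapentin, reached 161, 146 and 137 CPM in lactotrope-like cluster 0. Corticotrope-like cluster 6 had 156 and 136 CPM and melanotrope-like cluster 7 had 147 and 131 CPM in WT and HT, so these 3 clusters differed little. Cacna2d2 stood at 95.2 CPM in KO cells of pituicyte-like cluster 18, with thyrotrope-like cluster 14 next at 35.0, 45.2 and 30.9 CPM. Cacna2d3 was mostly in corticotrope-like cluster 6, at 15.3 and 22.7 CPM, and cluster 11, at 24.4, 9.83 and 23.5 CPM. Cacna2d4 was scarce, and its leading value in cluster 13 rested on 4 counts.

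The beta subunit genes also had different leading clusters. Cacnb2 was at 90.4, 52.3 and 59.1 CPM in cluster 13 and at 47.1, 35.6 and 43.0 CPM in gonadotrope-like cluster 3. Cacnb3 led in thyrotrope-like cluster 14 with 50.8, 81.8 and 61.7 CPM. Cacnb4 was at 55.8 CPM in KO pituicyte-like cells, and the next value, 17.5 CPM in cluster 17, rested on 5 counts. Cacnb4 shares its locus with A430018G15Rik on the opposite strand, which has 12630 counts. Cacnb1 was low, with 6.54 and 5.01 CPM in WT and HT melanotrope-like cells.

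Among the gamma genes, Cacng2 (stargazin, a trafficking partner of AMPA receptors) stood at 24.4, 7.37 and 15.5 CPM in cluster 11, at 11.8 and 12.05 CPM in melanotrope-like cluster 7 and at 11.5 and 8.54 CPM in corticotrope-like cluster 6. Cacng5 and Cacng8 led in cluster 13, at 12.4, 13.5 and 12.5 CPM for Cacng5 and at 26.6, 19.4 and 14.8 CPM for Cacng8. Cacng4 was at 17.4, 21.7 and 5.85 CPM in fibroblast-like cluster 15. Its mean there was 1.06-fold over that of cluster 13, and in KO cluster 11 was highest. Cacng6 and Cacng7 had leading values on 2 and 5 counts, in clusters 17 and 18. Cacng3 stayed near or below 1 CPM in lactotrope-like cluster 0, with 1.27, 0.749 and 0.374 CPM.

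The sodium channel pore genes gave the sharpest contrasts between clusters. Scn2a, the pore of immature axons and many central neurons, stood at 61.0 CPM (interval 54.9 to 67.5) in WT and 86.7 (80.5 to 93.3) in HT in melanotrope-like cluster 7, against 6.15 and 7.61 CPM in corticotrope-like cluster 6. A count was found in 31.5% and 49.2% of melanotrope-like cells and in 3.61% and 4.24% of corticotrope-like cells. Both clusters are Pomc-producing and of similar depth, at 8380 and 11452 counts per cell in cluster 7 and 7376 and 9256 in cluster 6. In macrophage-like cluster 8, a cell type not known for this gene, Scn2a had 0, 2 and 0 counts, where 3 counts would give 2.69, 1.84 and 1.55 CPM.

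The Scn2a promoter is shown because this gene separates the Pomc-producing clusters. It is taken from RefSeq on GRCm38.p6, chr2:65620519-65620818 on the plus strand, and runs from 250 bases before to 50 bases after the first of 2 listed starts. Capitals in this and later promoters mark motif matches, searched on both strands. The motifs were the GC box, the CRE core, a T-box element, the TATA box and a site of the type bound by Pou1f1. This window has no match to any of them.

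Scn2a: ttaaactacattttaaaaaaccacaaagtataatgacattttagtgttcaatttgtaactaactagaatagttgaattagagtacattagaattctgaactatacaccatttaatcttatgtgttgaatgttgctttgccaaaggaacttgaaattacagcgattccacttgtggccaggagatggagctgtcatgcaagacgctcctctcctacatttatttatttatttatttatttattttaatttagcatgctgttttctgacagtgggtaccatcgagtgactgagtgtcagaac

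Over all 32851 promoters of the same length, 35.7% held the GC box, spelled GGGCGG, and 18 of the 43 windows listed for 32 of the channel genes held it. The CRE core, spelled TGACG, was in 20.8% of all promoters and in 6 of the channel gene windows. The T-box element, spelled TCACACC, was in 3.98% of all promoters and 1 of those windows. The TATA box, spelled TATAAA, was in 13.6% of all promoters and 2 windows. The Pou1f1-type site, spelled ATGAATA, was in 3.27% of all promoters and 3 windows. None of these motifs contains another, and a match describes the letters in the window.

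Scn7a encodes Nax, a relative of sodium channels that senses extracellular sodium and is known from glia. In KO cells of pituicyte-like cluster 18 it had 813 counts in 107 cells, or 1106 CPM (1031 to 1185), with a count in 85.0% of cells. The 9 WT and 2 HT cells of that cluster had 35 and 8 counts, or 622 and 416 CPM. Fibroblast-like cluster 15 came next at 31.3, 13.8 and 32.2 CPM, and melanotrope-like cluster 7 had 4.25 and 7.75 CPM in WT and HT. Macrophage-like cluster 8 had 0, 0 and 1 counts. Cluster 18 held 96.5% of the sum of the gene's mean CPM over clusters. Scn7a was itself among the genes of highest fold in cluster 18.

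The Scn7a promoter, shown for the gene most concentrated in 1 cluster, lies at chr2:66784861-66785160 on the minus strand of GRCm38.p6. It holds 1 GC box, read on the opposite strand.

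Scn7a: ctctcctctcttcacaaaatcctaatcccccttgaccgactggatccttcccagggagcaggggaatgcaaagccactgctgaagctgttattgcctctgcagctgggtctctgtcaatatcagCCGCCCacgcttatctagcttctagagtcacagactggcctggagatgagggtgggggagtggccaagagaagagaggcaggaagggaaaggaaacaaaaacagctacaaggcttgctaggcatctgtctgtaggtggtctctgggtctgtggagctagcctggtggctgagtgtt

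Scn3a, a pore gene of the developing nervous system, was at 167, 132 and 199 CPM in cluster 13. Thyrotrope-like cluster 14 had 114, 99.2 and 110 CPM, gonadotrope-like cluster 3 had 102, 90.4 and 113 CPM, and cluster 11 had 97.8, 86.0 and 104 CPM. The somatotrope-like clusters together had 6.32, 8.59 and 10.5 CPM. Scn3a, Scn2a, Scn1a, Scn9a and Scn7a are neighbours on chromosome 2 of GRCm38, from chr2:65457118-65567627 for Scn3a to chr2:66673425-66784914 for Scn7a. Their leading clusters were 13, 7, 12, 18 and 18. The leading cluster of Scn1a rested on 1, 0 and 6 counts in cluster 12, too few to settle it. In lactotrope-like clusters 0 and 4 together Scn1a was at 0.478, 0.502 and 0.464 CPM on 18, 30 and 23 counts. The somatotrope-like clusters together had 0.0229, 0.109 and 0.265 CPM, and the intervals of the KO values overlapped. Scn9a, known from pain-sensing neurons, was at 14.96 CPM in cluster 18 on 11 counts, at 13.9 CPM in KO cells of cluster 11 and at 10.6 and 11.1 CPM in WT and HT melanotrope-like cells.

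**Figure D2:**
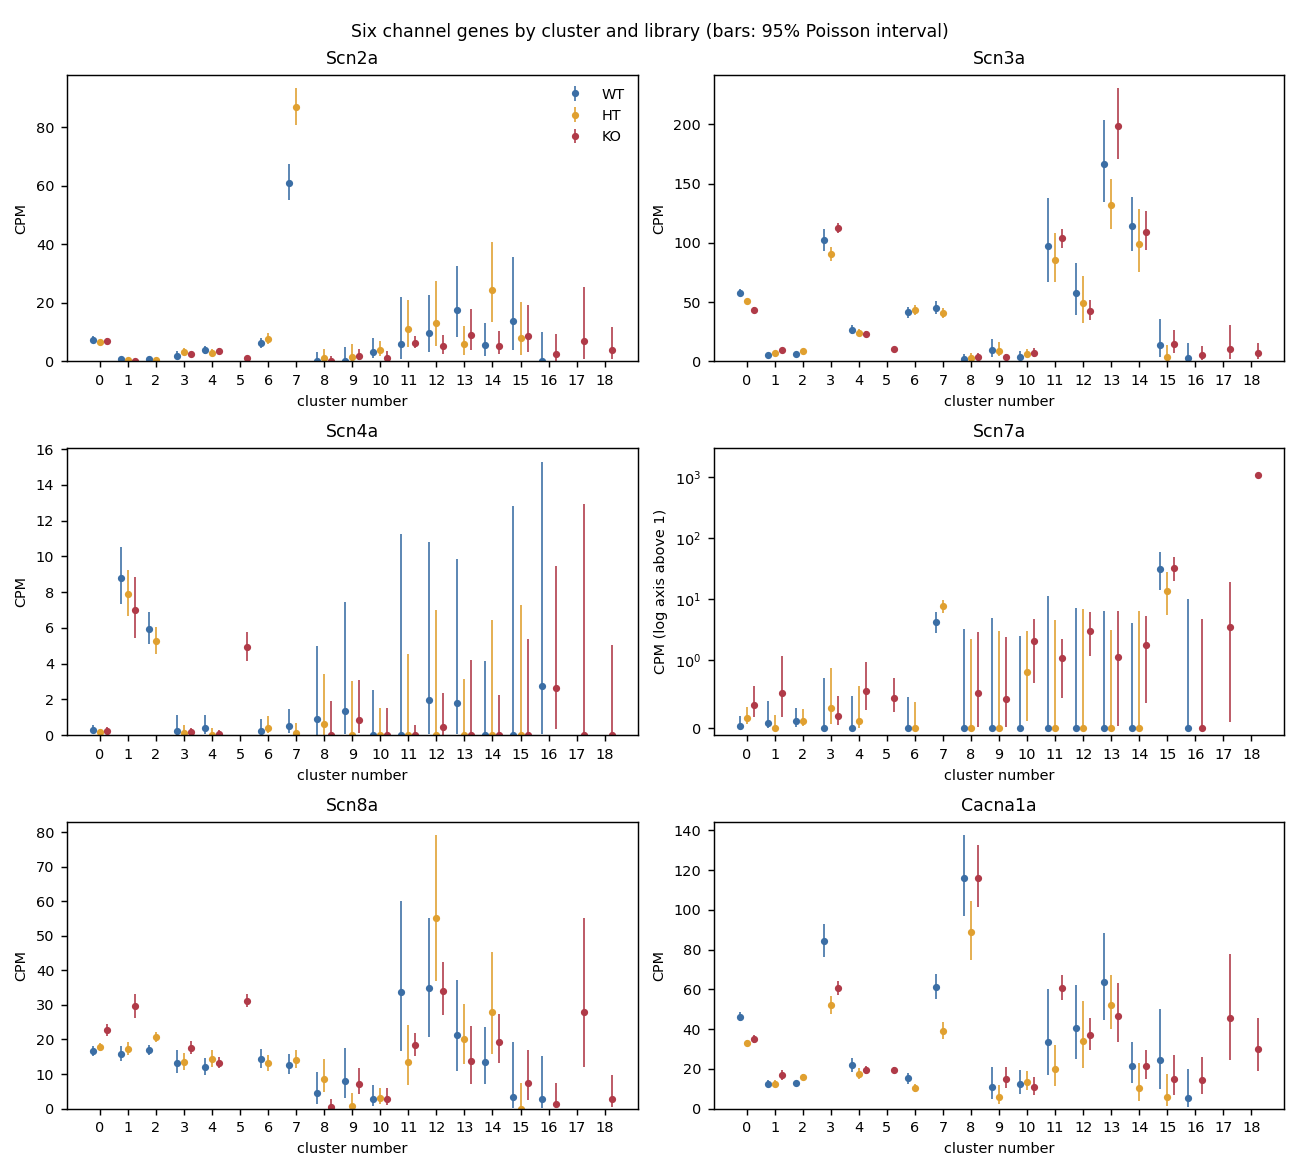
CPM of Scn2a, Scn3a, Scn4a, Scn7a, Scn8a and Cacna1a by cluster number (horizontal axis) in WT (blue), HT (yellow) and KO (red), for clusters with at least 50 cells in that library. Bars are 95% Poisson intervals, and the Scn7a axis is logarithmic above 1 CPM. Scn2a peaked in cluster 7, Scn7a in cluster 18 and Cacna1a in cluster 8.

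Scn4a, the skeletal muscle sodium pore, was found in somatotrope-like cells. It stood at 8.81, 7.87 and 6.98 CPM in cluster 1, at 5.95 and 5.24 CPM in WT and HT cells of cluster 2 and at 4.91 CPM in KO cells of cluster 5. In lactotrope-like cluster 0 it was at 0.301, 0.177 and 0.204 CPM. A count of Scn4a was found in 6.61%, 7.52% and 4.88% of cluster 1 cells and in 0.241%, 0.181% and 0.190% of cluster 0 cells, whose mean depth was similar. Scn8a, a pore of mature axons, was broad. It led in cluster 12 with 34.9, 55.1 and 34.1 CPM and was at 31.3 CPM in KO cells of cluster 5. The sensory neuron genes Scn10a and Scn11a were near 0: in lactotrope-like cluster 0, where each had more counts than in any other cluster, Scn10a was at 0.334, 0.0788 and 0.442 CPM and Scn11a at 0.401, 0.768 and 0.680 CPM.

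Among the beta genes, Scn2b had its highest mean in corticotrope-like cluster 6, with 31.5 and 22.2 CPM in WT and HT, and was at 1.79, 0.612 and 0.516 CPM in WT, HT and KO cells of macrophage-like cluster 8. Scn3b was at 15.6 and 17.7 CPM in cluster 6 and at 15.7 and 8.59 CPM in cluster 7.

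Of the HCN genes, Hcn4, the main channel of the cardiac pacemaker, differed between the Pomc-producing clusters. It stood at 5.72 and 9.19 CPM in melanotrope-like cells of WT and HT and at 1.13 and 1.25 CPM in corticotrope-like cells. Hcn2 led in cluster 13 with 21.3, 11.8 and 14.8 CPM, near the 14.5, 10.9 and 13.5 CPM of gonadotrope-like cells. Hcn3 led in cluster 17 on 5 counts.

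Genotypes were compared in clusters with at least 100 cells in both libraries, in clusters 0 and 4 together, in clusters 1, 2 and 5 together and over all cells. A gene was counted in a comparison with at least 30 counts in both libraries together, and called higher or lower at 2-fold, as a log2 ratio with 1 CPM added to both values. KO over WT and KO over HT share the KO library. Over all cells, 1 of 41 channel genes was called higher in KO than in WT, against 1.23% of the 23882 genes counted, and 0 were called lower, against 0.683%. The median log2 ratio was 0.06 for the channel genes and 0.05 for all genes. Against HT, Scn7a was called higher (0.813% of all genes) and Scn2a lower (0.49%). In sums over cells of several types, fewer cells of a type and less RNA per cell cannot be told apart.

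The gene called over all cells was Scn7a, with 0.699, 0.650 and 6.79 CPM in WT, HT and KO. KO was 9.72-fold above WT (7.67 to 12.5), a log2 ratio of 2.20. Of the 905 KO counts, 813 came from the 107 cells of pituicyte-like cluster 18. Without cluster 18 the log2 ratio was 0.30. The call was also lost on the authors' scaled counts, where the log2 ratio of Scn7a was 0.72. Those scaled values average the clusters evenly, so the 9 WT cells of cluster 18 weigh as much as any larger cluster. In the share of cells with a count the log2 ratio of Scn7a was 0.77. There 1 percentage point was added to both shares, which pulls small shares together, so this value cannot be set against the call. The gene called higher on the scaled counts was Hcn3, at 1.05, where its log2 ratio of CPM was -0.15. Scn2a, at 6.99, 8.45 and 3.48 CPM over all cells, was 2.01-fold below WT in KO (1.79 to 2.26), and outside clusters 6, 7 and 11 it was at 3.51, 3.59 and 3.33 CPM, with a KO over WT ratio of 0.949 (0.820 to 1.10). Hcn4 outside those clusters was at 0.603, 0.457 and 0.591 CPM.

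In somatotrope-like clusters 1, 2 and 5 as 1 unit, 19 of 29 channel genes with enough counts had log2 ratios above 0 against WT, with a median log2 ratio of 0.32 where the median of all genes was 0.17. On the authors' scaled counts, averaged evenly over these clusters, 14 of 29 lay above 0. At 2-fold, 0 were called higher (1.42% of all genes) and 1 was called lower (1.37% of all genes). Against HT, 0 of 29 were called higher (1.04%) or lower (1.11%). Mean counts per cell were 11670, 14345 and 11344 in WT, HT and KO, and growth hormone took 572142, 573248 and 499756 CPM.

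**Figure D3:**
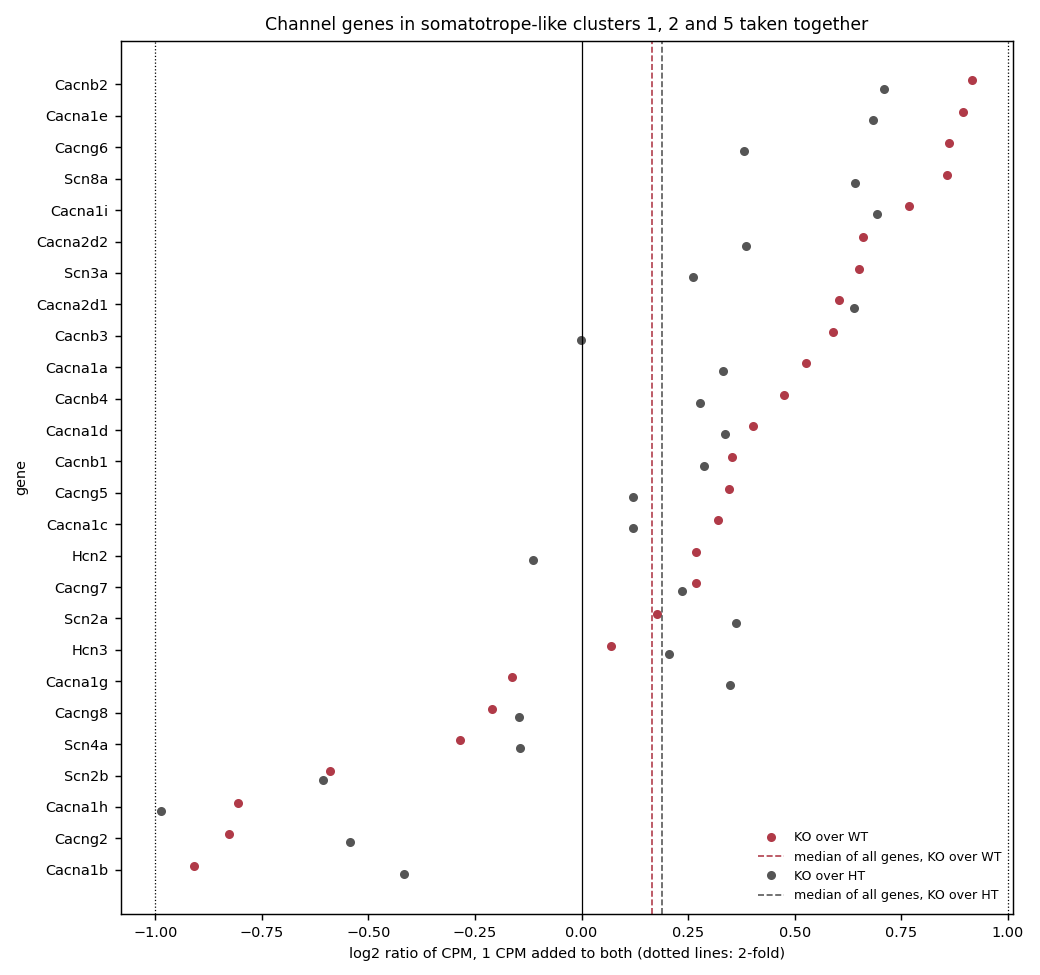
Log2 ratios of CPM (horizontal axis, 1 CPM added) for channel genes with enough counts in somatotrope-like clusters 1, 2 and 5 as 1 unit, for KO over WT (red) and KO over HT (grey). Dashed lines are the medians of all genes and dotted lines 2-fold. Cacnb2, Cacna1i, Scn8a and Cacna2d1 lie right of both medians, and Cacna1h and Cacna1b lie left of them.

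Scn8a was at 16.6, 19.5 and 31.0 CPM in WT, HT and KO somatotrope-like cells, a KO over WT ratio of 1.86 (1.70 to 2.04) and a KO over HT ratio of 1.59 (1.46 to 1.73). Cacna2d1 was at 33.6, 32.7 and 51.5 CPM, 1.54-fold above WT (1.44 to 1.64). Cacnb2 was at 8.01, 9.41 and 16.01 CPM, 2.00-fold above WT (1.75 to 2.28). Cacna1i was at 3.39, 3.62 and 6.48 CPM, 1.91-fold above WT (1.56 to 2.35). In each of these 4 genes HT lay nearer to WT than to KO, and the intervals of KO over WT and of KO over HT lay above 1. Relative to the shift of all genes, the log2 ratio of Scn8a was 0.69 and that of Cacnb2 was 0.75.

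Among the genes with lower values in KO were a T-type and the N-type calcium pore. Cacna1h was at 5.38, 6.22 and 2.65 CPM, 2.03-fold lower than in WT (1.61 to 2.57), which is short of a call once 1 CPM is added, and 2.35-fold lower than in HT (1.89 to 2.94). Cacna1b was at 16.7, 11.6 and 8.43 CPM, 1.98-fold lower than in WT (1.74 to 2.26). In cluster 1, which holds cells of every genotype, neither Cacna1h nor Cacna1b was called lower. Most cells of the unit were in cluster 2 in WT and HT (2081 of 3744 and 2092 of 3831) and in cluster 5 in KO (2457 of 3662). The part of that change of clusters in the ratios of this unit was not tested. Scn4a was also lower in KO, at 6.84, 6.11 and 5.44 CPM, whereas Cacna1a was higher, at 12.8, 14.7 and 18.8 CPM. Both directions turned on the authors' scaled counts, where the log2 ratio was 0.15 for Scn4a and -0.30 for Cacna1a. Those scaled values average the 3 clusters evenly, including the 17 KO cells of cluster 2 and the 28 WT cells of cluster 5.

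Cluster 1 holds somatotrope-like cells of every genotype, with 1635, 1715 and 1188 cells. There 2 of 19 channel genes were called higher in KO than in WT (2.27% of all genes) and 2 lower (1.53%). Cacna1i was at 2.53, 3.15 and 7.19 CPM in WT, HT and KO, 2.84-fold above WT (1.87 to 4.40) and 2.28-fold above HT (1.59 to 3.29), which with 1 CPM added falls just short of a call. Cacnb2 was at 7.01, 8.90 and 16.8 CPM, 2.40-fold above WT (1.86 to 3.12) and 1.89-fold above HT (1.51 to 2.36). Scn8a, at 15.8, 17.2 and 29.6 CPM, and Cacna2d1, at 26.4, 24.9 and 46.8 CPM, were also higher in KO within cluster 1, below 2-fold. The median of all genes was shifted by 0.17 on the log2 scale there. Against HT, 0 of 21 were called higher (2.43%) or lower (1.22%).

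Of the genes called lower in cluster 1, Cacng8 was at 2.38, 0.706 and 0.616 CPM. HT lay beside KO, so WT was the library that stood apart. Markers of other cells moved in cluster 1 as well. The summed level of the 5 corticotrope markers was 562, 596 and 12.1 CPM, with Tbx19, Crhr1 and Avpr1b at 0 in KO. That of the 5 lactotrope markers was 4795, 4249 and 10712 CPM, and that of the 8 gonadotrope markers was 1076, 979 and 2338 CPM. The part of these markers in the Cacnb2, Cacna1i and Cacng8 values was not tested.

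The promoters of Cacna1i and Cacnb2 are shown because both genes were called higher in cluster 1. The Cacna1i window lies at chr15:80286988-80287287 on the plus strand of GRCm38.p6 and holds 1 CRE core, read on the opposite strand. The Cacnb2 window, the first of 2 listed, lies at chr2:14604056-14604355 on the plus strand and holds 1 GC box, read on the opposite strand.

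Cacna1i: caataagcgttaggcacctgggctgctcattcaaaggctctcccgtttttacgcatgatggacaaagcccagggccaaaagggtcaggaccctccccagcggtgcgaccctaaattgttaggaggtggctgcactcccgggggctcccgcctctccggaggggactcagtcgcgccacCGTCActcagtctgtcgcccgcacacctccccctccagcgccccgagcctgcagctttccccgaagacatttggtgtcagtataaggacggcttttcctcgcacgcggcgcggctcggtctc

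Cacnb2: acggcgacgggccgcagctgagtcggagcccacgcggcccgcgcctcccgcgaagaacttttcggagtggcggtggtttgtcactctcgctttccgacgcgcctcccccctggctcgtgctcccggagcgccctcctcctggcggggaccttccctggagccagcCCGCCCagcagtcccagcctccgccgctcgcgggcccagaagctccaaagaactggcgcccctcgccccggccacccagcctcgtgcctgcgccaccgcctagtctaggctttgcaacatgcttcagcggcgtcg

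The Cacnb2 gene overlaps 15 other annotated genes, among them Gm13268 and Gm10848 on the opposite strand, and reads of such pairs may not be separable.

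In lactotrope-like clusters 0 and 4 together, 0 of 34 channel genes were called higher (0.248% of all genes) and 0 lower (0.7%), and the median log2 ratio was -0.21 against -0.12 for all genes. Against HT, 0 of 33 were called higher (0.176%) or lower (0.39%). Scn3a was at 35.4 CPM in KO and 51.6 in WT, and Cacnb3 at 26.4 and 38.2 CPM. In cluster 0 alone, 0 genes were called higher (0.364%) and 1 was called lower (0.578%). This was Cacng2, at 2.71, 2.29 and 0.646 CPM in WT, HT and KO, with KO 4.19-fold below WT (2.52 to 7.31) and 3.54-fold below HT (2.17 to 6.09). Against HT, 0 of 32 were called higher (0.25%) or lower (0.194%) once 1 CPM was added. In cluster 4, 1 of 23 genes was called higher (0.968%) and 0 lower (0.415%). This was Scn3b, at 0.390, 0.776 and 1.93 CPM on 3, 7 and 39 counts, 4.95-fold above WT (1.57 to 25.0). Against HT, Cacnb1 was called higher in cluster 4 (0.876%), at 0.665 CPM in HT and 2.43 in KO, and 0 were called lower (0.253%).

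In gonadotrope-like cluster 3, with 449, 630 and 1662 cells, 2 of 27 channel genes were called higher in KO than in WT (1.38%) and 0 lower (1.88%). Of the higher genes, Cacna2d3 was at 0.795, 2.81 and 3.23 CPM on 4, 28 and 69 counts. HT lay near KO, and against HT 0 of 27 genes were called higher (1.06%) or lower (1.04%). The summed corticotrope markers of these cells were 2371, 1675 and 98.9 CPM in WT, HT and KO, and their part in the Cacna2d3 value was not tested. Cacng2 was at 6.36, 6.63 and 10.2 CPM in cluster 3, higher in KO by 1.60-fold (1.10 to 2.40). Cacna1a was at 84.3, 52.0 and 60.6 CPM, with WT apart from the others.

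In the cells outside the endocrine lineages few channel genes had enough counts. In endothelial-like cluster 9, 1 of 4 was called lower (3.05%) and 0 higher (5.13%). It was Cacna2d1, at 36.1, 9.83 and 11.1 CPM, with KO 3.26-fold below WT (1.83 to 5.81), while KO and HT were alike within counting error, with a KO over HT ratio of 1.13 (0.549 to 2.45). The summed lactotrope markers of cluster 9 were 38203, 9740 and 24153 CPM and growth hormone was at 94501, 39604 and 26901 CPM, so the WT library also carried more hormone RNA there. The part of that RNA in the Cacna2d1 value was not tested. Against HT, Cacna1a was called higher there (2.54%), at 5.74 CPM on 7 counts in HT and 14.9 on 35 in KO, and 0 were called lower (1.52%). In macrophage-like cluster 8, 0 of 4 were called higher (2.39%) or lower (3.02%), and the KO over WT ratio of Cacna1a was 1.00 (0.805 to 1.26). Against HT, 0 of 3 were called higher (2.23%) or lower (1.78%). In stem-cell-like cluster 10, 0 of 7 were called higher (2.28%) or lower (1.5%), with Cacnb2 at 27.1, 35.0 and 47.2 CPM. Against HT, Cacna2d3 was called lower in cluster 10 (1.54%), at 10.8 CPM in HT and 4.11 in KO, and 0 were called higher (1.87%).

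Corticotrope-like and melanotrope-like clusters allow HT to be compared with WT only. At 2-fold, 0 of 25 channel genes were called higher (0.739%) or lower (1.75%) in corticotrope-like cluster 6, and 0 of 28 higher (0.875%) or lower (1.53%) in melanotrope-like cluster 7. Below that threshold, Scn2a was 1.42-fold higher in HT in cluster 7 (1.25 to 1.62) and Hcn4 1.61-fold higher (1.06 to 2.47), whereas Cacna1a was 1.56-fold lower (1.34 to 1.81), at 61.1 CPM in WT and 39.2 in HT.

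**Figure D4:**
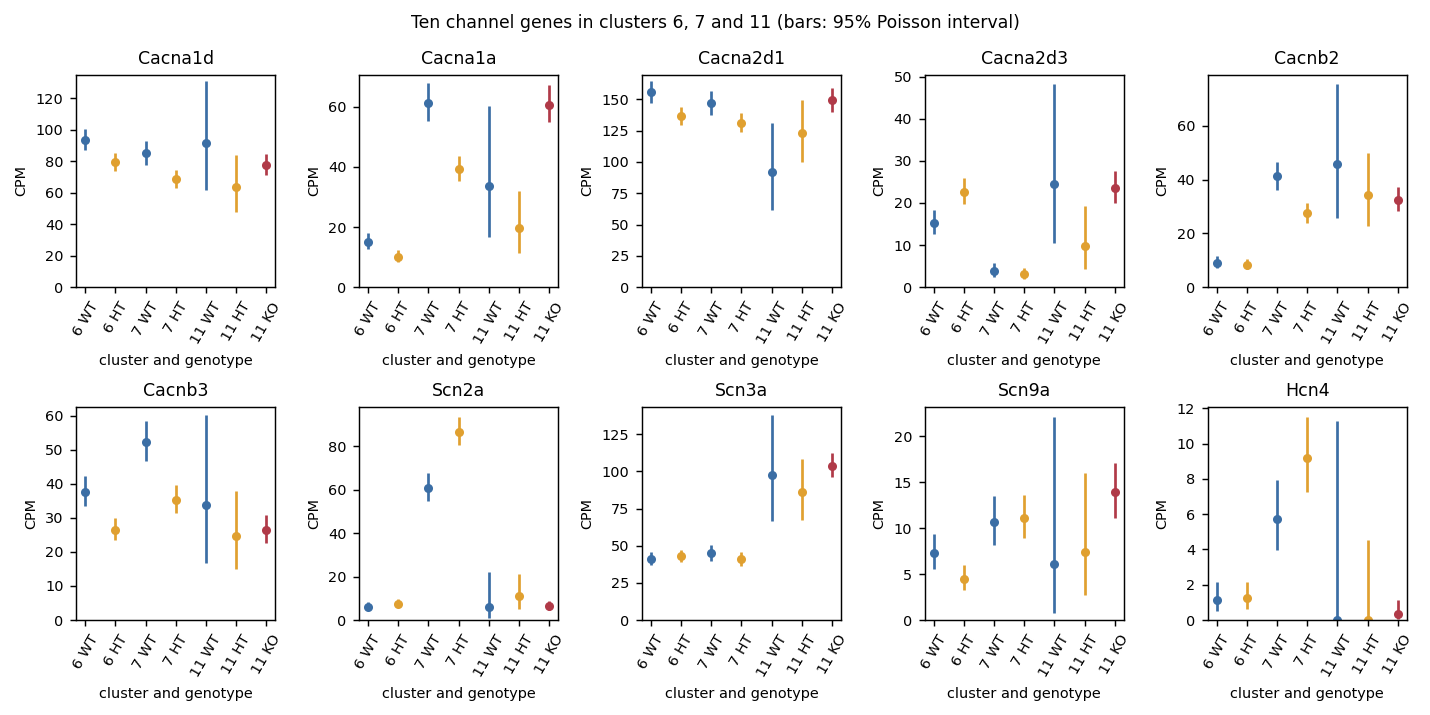
CPM of 10 channel genes in corticotrope-like cluster 6, melanotrope-like cluster 7 and cluster 11, by genotype (WT blue, HT yellow, KO red), with 95% Poisson intervals. Clusters 6 and 7 have no KO cells. Scn2a and Hcn4 were high in cluster 7.

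Cluster 11 holds 53 WT, 107 HT and 871 KO cells. In KO its summed corticotrope markers were 278 CPM, against 20192 in WT and 33665 in HT. A deposited row named LacZp had 0, 7 and 83 counts there in WT, HT and KO. Over all libraries, 7 of 8 gonadotrope, 5 of 6 melanotrope and 3 of 5 corticotrope markers were at least 4-fold above the median cluster there. So were 3 of 5 neuron and 3 of 8 stem cell markers. Pomc and Tbx19 are in both the melanotrope and the corticotrope list. Cacna2d3, at 23.5 CPM in KO, stood near its corticotrope-like level, and Scn2a and Hcn4, at 6.47 and 0.316 CPM, stood far below their melanotrope-like levels. Cacna1a, at 60.6 CPM, stood beside 61.1 and 39.2 CPM in melanotrope-like cells of WT and HT, 15.2 CPM in corticotrope-like cells of WT and 60.6 CPM in gonadotrope-like KO cells. Scn3a, at 104 CPM, was above its level in clusters 6 and 7 and below the 113 CPM of gonadotrope-like KO cells.

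Against HT, 6 of 27 channel genes were called higher in KO cells of cluster 11 (10.4% of all genes) and 2 lower (3.01%). The HT values rest on few counts. Cacna1a was at 19.7 CPM in HT on 16 counts, with KO 3.08-fold higher (1.88 to 5.45). Cacna1b and Cacna2d3 were called higher on 6 and 8 HT counts, Cacna1f on 1 HT count and Cacna1i on 0 HT against 33 KO counts. The interval of the Cacna1f ratio includes 1. Cacna1e and Cacng8 were called lower, at 9.83 and 3.95 CPM for Cacna1e and 20.9 and 9.63 CPM for Cacng8 in HT and KO, and the interval of the Cacna1e ratio includes 1. In cluster 13, 1 of 11 was called higher than in HT (2.24%) and 0 lower (2.72%).

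Genes that act on these channels or on calcium were taken as 8 lists of 66 genes, of which 65 were found. Against WT over all cells, 1 of the 5 inhibitors of high-voltage calcium channels was called higher, where 1.23% of all genes were called higher and 0.683% lower. It was Rrad, a small GTPase that binds calcium channel beta subunits, at 4.13, 4.83 and 29.0 CPM in WT, HT and KO, 7.02-fold above WT (6.36 to 7.76). Cluster 3 had 31.8, 42.7 and 113 CPM of Rrad, and KO cells of cluster 11 had 171 CPM. Among 13 scaffolds and modulators 0 were higher and 1 lower, the kinase gene Camk2a, at 4.38, 3.83 and 1.06 CPM. Among 11 pumps and exchangers 0 were higher and 1 lower, the sodium, calcium and potassium exchanger gene Slc24a3, at 3.79, 3.05 and 0.871 CPM. Outside clusters 6, 7 and 11 neither was called lower: Camk2a had a KO over WT ratio of 1.81 (1.27 to 2.63) and Slc24a3 of 1.10 (0.807 to 1.5002), while Rrad was 5.91-fold above WT (5.28 to 6.63). On the authors' scaled counts, averaged evenly over all clusters, the log2 ratios of Rrad, Camk2a and Slc24a3 were 0.95, -0.51 and -0.99. Each of them was short of a call. The sodium channel partners, the sodium leak channel complex, the calcium release channels, the store-operated entry genes and the calcium-binding proteins had 0 calls over all cells. The list medians ran from -0.16 to 0.32 beside 0.05 for all genes.

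In the somatotrope-like clusters together, 1 of 7 sodium channel partners was called higher, where 1.42% of all genes were called higher and 1.37% lower. It was Fgf12, an intracellular protein that binds sodium channels, at 3.87, 6.61 and 10.6 CPM, 2.73-fold above WT (2.28 to 3.28). Of 4 calcium-binding proteins 1 was called higher, Calb1 (calbindin), at 8.47, 12.8 and 62.8 CPM, 7.41-fold above WT (6.65 to 8.29). The other 6 lists had 0 calls there. In cluster 1, where 2.27% of all genes were called higher and 1.53% lower, Fgf12 and Calb1 were called again, with the sodium-calcium exchanger gene Slc8a1 higher at 12.9, 13.03 and 33.1 CPM and the sodium channel partner gene Fgf13 lower at 5.996, 7.76 and 2.16 CPM.

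In lactotrope-like clusters together, where 0.248% of all genes were called higher and 0.7% lower, 1 of the 5 inhibitors was called lower. It was Rem1, a relative of Rrad, at 2.53, 1.79 and 0.504 CPM in WT, HT and KO. The other lists had 0 calls there. In gonadotrope-like cluster 3, 1.38% of all genes were called higher and 1.88% lower. Of 6 calcium release genes, the ryanodine receptor gene Ryr2 was called higher there, at 2.38, 4.62 and 11.5 CPM. KO was 4.83-fold above WT (2.71 to 9.47) and 2.49-fold above HT (1.81 to 3.49). Of the 4 inhibitors counted in cluster 3, Rrad was called higher and Gem lower. Against HT, Rrad was called higher again and Gem was not called.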

How the data were processed

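The authors deposited raw counts summed per gene, cluster and genotype, and the number of cells with a count, from Chromium 3′ libraries of cells sorted with propidium iodide, per the labels' protocols. The deposited table of scaled counts (a signal, the raw count times 1 factor per cluster and genotype) served as an alternative. Cluster numbers per barcode are the authors'. Per the submitters' processing notes, the builds were mm10 and GRCm38 and the tools included Cell Ranger 5, DESeq2 and Seurat 3.1. Clustering and doublet settings are not given in the sources used here. Rows with the same symbol were summed (110 rows).

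CPM, shares of cells with a count, and ratios were computed with Python 3.11.15 and scipy 1.17.1, with 95% exact Poisson, Clopper-Pearson and conditional binomial intervals, checked on simulated counts. The intervals cover counting error only. Total counts per library were 107289047, 152382545 and 133252735 in WT, HT and KO. Ratios needed 30 counts, and log2 ratios had 1 CPM added. Alternatives on a scale other than CPM had 1 unit of that scale added. Genes were named where KO over WT was past 2-fold, the interval left out 1 and KO over HT was at least 0.5 on the log2 scale in the same direction, and by role. Other genes were named after their values were seen, and some genes of the set, though counted, are not reported by name or drawn here. The rule for leading clusters was written as an even sum over genotypes, and was read as a mean over libraries with at least 50 cells of the cluster. Under the plain sum, 28 of 41 genes kept their leading cluster. Members and gene lists were chosen with earlier results of these data known. Promoter windows are from RefSeq on GRCm38.p6. Alternatives changed the scaling, the total, the pseudocount and the count filter.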

Additional observations from a re-analysis of the deposited data

Results flagged for a closer look

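Cacna2d1 and Cacng2 moved in opposite directions between KO and WT in different clusters. For Cacna2d1 the KO over WT ratio of CPM was 1.77 in somatotrope-like cluster 1 and 0.307 in endothelial-like cluster 9, where the WT library also carried more hormone RNA. For Cacng2 the ratio was 1.60 in gonadotrope-like cluster 3 and 0.239 in lactotrope-like cluster 0. Each genotype is 1 library, and the difference between clusters was not tested.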

How the results depend on the processing

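Counts of channel genes past 2-fold in KO over WT depended on the settings, and the cause was not tested. Where a result covers several clusters, the authors' scaled counts were averaged evenly over them, so that setting also changes the weight of each cluster. Over all cells, the 1 higher gene became 2 with a total without hormone and mitochondrial genes, 2 with a pseudocount of 0.1 CPM and 0 with 10 CPM, and the 0 lower genes became 2 with 0.1 CPM. Without cluster 18 there were 0 higher genes. In clusters 1, 2 and 5 together, the 0 higher genes became 3 with the authors' scaled counts, 1 with the total without hormones and 2 with 0.1 CPM. The 1 lower gene there became 5, 4 and 3 in the same order, 0 with 10 CPM and 2 after subtracting the median of all genes. In clusters compared one by one, the 5 higher calls became 0 with 10 CPM, 12 with no filter, 2 with a filter of 100 counts and 3 after subtracting the median. The 4 lower calls became 1, 20 and 2 under the first 3 of these. Of the list genes, the 3 calls over all cells became 0 with the authors' scaled counts and 1 with 10 CPM, and the 2 in clusters 1, 2 and 5 became 1 with 10 CPM. With counts per cell, 22 of 41 genes kept their leading cluster, and 31 did with a total without hormone and mitochondrial genes. With a plain sum over the libraries, 28 did.

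Over 40 results for single genes, 282 of 285 alternative values kept their direction. The exceptions, on the authors' scaled counts, were Hcn3 over all cells at a log2 ratio of 1.05, and Cacna1a and Scn4a in clusters 1, 2 and 5 at -0.30 and 0.15. Of the 285 values, 115 lay outside the interval of the plain ratio, which has nothing added. Main values, with 1 CPM added, can lie outside it too, so the 115 do not measure departure from the main values. Leaving out cluster 18, subtracting the median and a plain sum for leading clusters were chosen after seeing the data. No paired analysis was possible because there was 1 library for WT, HT and KO each. The leading cluster of Scn1a, with 119 counts in all, could not be settled at this depth.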
